A study of Mus musculus with 32 samples.

Results

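Loss of Percc1 was followed in mouse stomach, in 10 of the 32 libraries of a total RNA-seq series on dissected parts of the digestive tract. The 10 are those labelled stomach, 5 from percc1-/- and 5 from wild-type mice, 1 of each genotype at postnatal days 1, 5, 10, 15 and 20 (P1 to P20), and were compared as 5 pairs of equal stage. At P1 and P5 the organ was taken whole, and from P10 on its bottom part was used, so that stage and dissection cannot be told apart. The percc1-/- allele is a deletion that leaves a loxP site behind after removal of a neomycin cassette by Cre; its embryonic stem cells were of the W4/129S6 line, and both genotypes come from a mixed 129SvEv and C57BL/6 background kept by sibling breeding. The deletion is a germline one and is not restricted to a cell type. Separate animals are not stated for the libraries, and p-values then reflect only how far these pairs vary, which may be partly technical.

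Hormone-producing cells are scattered through the gastric epithelium and arise from Neurog3-expressing progenitors, each type being known for its product. Ghrelin cells and histamine cells lie mainly in the acid-secreting mucosa and gastrin-producing G cells in the antrum, while somatostatin-producing D cells and serotonin-producing enterochromaffin cells are found in both. Percc1 encodes a proline- and glutamate-rich coiled-coil protein of gut endocrine cells, and loss of the human locus causes congenital diarrhoea.

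The values are FPKM, fragments scaled to the length of the transcript and to the size of the library. The FPKM bounds imply about 4580000 to 12370000 fragments per stomach library. Records with a gene symbol held 18.4% to 38.1% of the FPKM sum in 9 libraries and 60.2% in the percc1-/- library at P15, which stands apart. The top of the scale was compressed, with a highest named value of 88.2 to 204 FPKM per library, so that differences between abundant genes may be understated; its cause was not tested. A listed 0 is not read as absence, since 16 of the 5313 genes averaging 10 FPKM or more had one in a stomach library, 11 of them in percc1-/- at P1. The 16 include Ghrl and Gast, whose levels are described below. Genotype pairs were of 1 sex: Xist had 21.4 and 26.0 FPKM in the wild-type and percc1-/- libraries at P10 and 0.0739 to 0.428 in the other 8, where the Y-linked Kdm5d had 4.38 to 9.24.

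The tissue label held against its markers in every library. The proton pump gene Atp4a of parietal cells lay at 37.2 to 87.4 FPKM for wild type and 18.5 to 82.8 for percc1-/-, intrinsic factor (Gif) 22.3 to 66.8 and 8.30 to 67.4, pepsinogen C (Pgc) 38.4 to 177 and 19.4 to 148, and the surface mucin Muc5ac 4.53 to 72.8 and 0.947 to 58.6. Chymosin (Cym), the milk-clotting protease of suckling rodents, had 81.3 to 204 and 62.2 to 190. The squamous keratin Krt4, which marks the forestomach, had 28.8 to 53.8 and 12.95 to 39.4 FPKM, with 12.95 to 32.8 from P10 on, where only the bottom part was taken.

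No record carried the symbol Percc1, and the targeted locus was read from records without a symbol. The RefSeq promoter of Percc1 matches the mm9 genome once, on the minus strand of chromosome 17 with its start site at 25317763. Between 7017 and 10450 bases downstream of that site, at chr17:25307313-25310746, all 5 wild-type libraries had unnamed records and none of the 5 percc1-/- libraries had one. Their summed FPKM in wild type was 10.9 at P1, 5.16 at P5, 13.9 at P10, 10.4 at P15 and 10.5 at P20. None of the 7 wild-type small intestine libraries had an unnamed record there. The named Ccdc154, which the window overlaps, lay at 0.203 to 0.601 FPKM for percc1-/- stomach and at 0.761 to 1.83 for wild type. The RefSeq gene of Percc1 spans 9665 bases on GRCm38, and Ccdc154 is its neighbour. This window was chosen after its values were seen, and the labels' own deletion positions fall inside Ift140 when read on mm9, so that their build is in doubt.

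**Figure D1:**
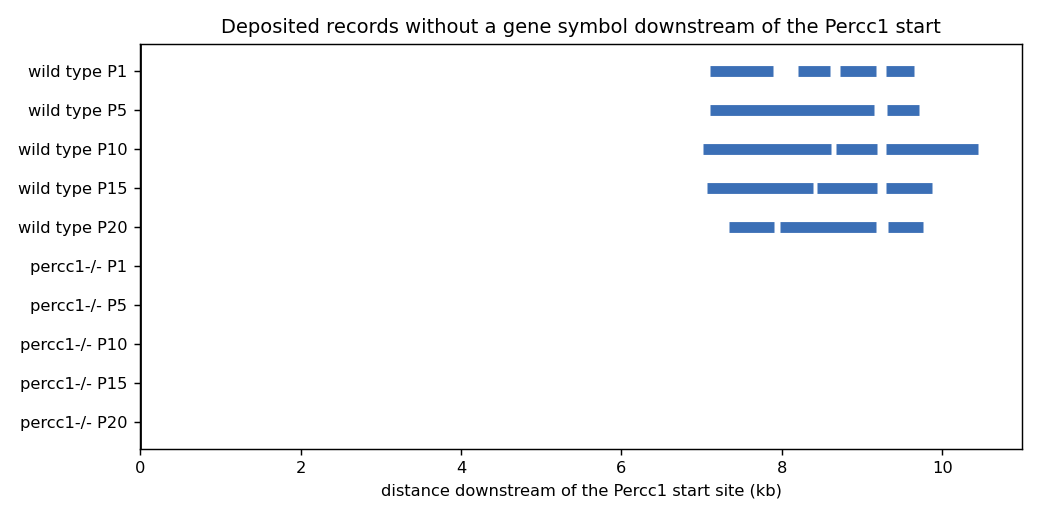
Deposited records without a gene symbol in each of the 10 stomach libraries (rows), drawn by distance in kb downstream of the Percc1 start site. Bars stand for records; they are present in 5 of 5 wild-type libraries, from 7017 to 10450 bases, and in 0 of 5 percc1-/- libraries.

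Loss of Percc1 went with a near loss of the named transcript of 1 hormone, a strong fall of another and a rise of the serotonin enzyme. Of 13367 genes tested with limma, 3 passed an adjusted p of 0.05 (0.0224%): ghrelin (Ghrl) and proglucagon (Gcg) fell, and tryptophan hydroxylase 1 (Tph1) rose. At an unadjusted p under 0.05, 2.24% of genes were lower and 2.42% higher, and the median change of all tested genes was -0.01 on the log2 scale. Changes are given on the scale of log2(rescaled FPKM + 1), which understates those of low genes. The smallest two-sided p that an exact sign-flip test can give over 5 pairs is 0.0625. Each of the 3 reached it, as does any gene of 1 sign in all 5 pairs (2.61% of tested genes higher and 3.24% lower). In these bulk samples, fewer cells of a type and less RNA per cell cannot be told apart.

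The promoters of the 3 genes that passed are shown because they belong to the only genes whose RNA level passed the test between genotypes. Each holds 250 bases before the RefSeq start and 50 bases from it on, 5' to 3', with the latter in capitals. They match mm9 once each, all on the minus strand, for Ghrl at chr6:113669856-113670155, for Gcg at chr2:62321661-62321960 and for Tph1 at chr7:53927858-53928157.
Ghrl: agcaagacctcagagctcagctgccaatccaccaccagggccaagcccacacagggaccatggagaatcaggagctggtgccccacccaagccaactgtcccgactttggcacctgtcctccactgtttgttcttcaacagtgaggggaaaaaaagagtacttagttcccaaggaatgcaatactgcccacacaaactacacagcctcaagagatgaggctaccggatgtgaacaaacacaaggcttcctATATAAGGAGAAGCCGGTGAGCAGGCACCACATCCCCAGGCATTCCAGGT
Gcg: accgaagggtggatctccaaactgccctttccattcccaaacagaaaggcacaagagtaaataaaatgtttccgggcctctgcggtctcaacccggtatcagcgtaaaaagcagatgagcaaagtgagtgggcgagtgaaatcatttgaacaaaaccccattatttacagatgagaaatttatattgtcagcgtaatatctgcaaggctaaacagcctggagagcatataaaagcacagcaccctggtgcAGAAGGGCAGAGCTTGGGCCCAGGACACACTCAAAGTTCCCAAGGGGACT
Tph1: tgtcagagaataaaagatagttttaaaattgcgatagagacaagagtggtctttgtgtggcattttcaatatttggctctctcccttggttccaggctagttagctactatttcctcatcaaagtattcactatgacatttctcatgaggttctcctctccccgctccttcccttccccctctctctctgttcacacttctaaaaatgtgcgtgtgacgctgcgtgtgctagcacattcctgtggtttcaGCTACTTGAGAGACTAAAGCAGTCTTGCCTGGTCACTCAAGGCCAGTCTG
The hexamer CAGATG (or CATCTG on the other strand), a form of the box bound by basic helix-loop-helix factors such as Neurog3 and Neurod1, occurs in 17.2% of 32851 RefSeq windows of this length. It occurs at 2 places in the Gcg window and at 0 in those shown for Ghrl and Tph1, whose other windows were not searched gene by gene. The TATA hexamer TATAAA, searched on both strands (13.6% of windows), gave the same counts of 2, 0 and 0. No match says only that these letters are not in the window.

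Ghrl encodes the precursor of ghrelin, the appetite-stimulating hormone. In wild type its level was 38.2 FPKM at P1, 44.9 at P5, 47.9 at P10, 53.4 at P15 and 67.9 at P20. In percc1-/- it was listed at 0 at P1, P5 and P20 and had 1.71 FPKM at P10 and 1.14 at P15. The groups did not overlap, and every wild-type library lay far above every percc1-/- one. Ghrl fell by 5.17 ± 0.26 (log2, SE; lower in 5 of 5 pairs; limma adjusted p = 0.00126). No single pair decided the call, since adjusted p lay between 0.00102 and 0.0250 with each left out, the latter without P15. Unnamed records overlap the gene. Counting them in gave totals of 5.54 to 10.6 FPKM for percc1-/- and 39.9 to 67.9 for wild type, and a change of -2.69 ± 0.23 (adjusted p = 0.0100); the files give no strand for them.

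Mboat4, the enzyme that attaches the fatty acid ghrelin needs for its activity, lay below the filter of a mean of 1 FPKM and was chosen after its values were seen. It had 1.01 FPKM in wild type and 0.289 in percc1-/- at P1, 1.08 and 0.349 at P5, 2.302 and 0.258 at P10, 1.40 and 0.252 at P15, and 1.52 and 0.264 at P20. All percc1-/- values lay below all wild-type ones, a pattern that 0.127% of the tested genes showed. Its rescaled level was 4.84-fold higher in wild type (geometric mean of 5 pairs), and in a fit without the filter it did not pass (-0.89 ± 0.13, adjusted p = 0.498). Of 17 genes listed for ghrelin cells, 11 were tested and only Ghrl passed. Their median change was -0.06, against -0.01 over all genes.

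Gcg encodes proglucagon, from which glucagon and the GLP peptides are cut. Wild-type levels were 6.52, 6.98, 7.81, 3.89 and 5.61 FPKM at P1, P5, P10, P15 and P20, and those in percc1-/- were 0.675, 0.840, 1.49, 0 and 0.127. The groups did not overlap. Gcg fell by 2.13 ± 0.14 (log2, SE; lower in 5 of 5 pairs; adjusted p = 0.00452), with pair differences from -1.76 at P10 to -2.46 at P20. It did not pass without the P15 pair (-2.08, adjusted p = 0.0642) or in a fit without the stage pairing (0.0600). Gcg is also a product of pancreatic islets, and the islet gene Ins2 (insulin) differed within pairs in both directions. Ins2 had 2.83, 1.84, 1.43, 0.155 and 0 FPKM in wild type from P1 to P20 and 0.177, 3.51, 23.5, 0 and 0.307 in percc1-/-. It was lower than wild type at P1 and P15, like Gcg, and higher at P5, P10 and P20. The call of Gcg remained without the P1 pair (-2.16, limma adjusted p = 0.0300) and ended without the P15 pair (0.0642). The part of islet tissue in the Gcg change was not tested.

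Tph1 encodes the enzyme that starts serotonin synthesis in enterochromaffin cells and in mast cells. In wild type it had 0.269, 0.443, 1.90, 2.21 and 2.49 FPKM from P1 to P20. In percc1-/- the values were 1.46, 2.90, 8.07, 13.5 and 9.77. Every pair was higher in percc1-/-, while the groups overlapped, with low levels at P1 and P5 in both genotypes. The rescaled ratio was 6.05 at P1, 7.49 at P5, 4.42 at P10, 4.81 at P15 and 4.37 at P20, and Tph1 rose by 1.59 ± 0.14 (log2, SE; adjusted p = 0.0315). The call rests on all pairs together: it remained without P1 (adjusted p = 0.0300) and ended without P5, P10, P15 or P20 (0.286, 0.259, 0.316 and 0.265). It also ended without the filter on low values (0.102), without the stage pairing (0.9999) and with unnamed records added (change 1.95, adjusted p = 0.237).

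The genes listed with Tph1 for serotonin cells gave no further call. Of 10 genes listed for serotonin cells 5 were tested, 1 rose and none fell, and all 5 changes were above 0 (47.9% of all tested genes were). Their median was 0.17, and by pair it was -0.30 at P1, 0.44 at P5, 0.14 at P10, 0.26 at P15 and 0.48 at P20. At P1 Ddc (-0.90), Maob (-0.32), Gch1 (-0.30) and Tac1 (-0.23) were lower in percc1-/-, and only Tph1 was higher. Over all pairs Ddc had a change of 0.01 ± 0.19 (limma adjusted p = 0.9999). Lmx1a, a transcription factor of serotonin-producing cells in mouse intestine, lay below the filter with 0.0524 and 0.178 FPKM in wild type and percc1-/- at P1, 0.0913 and 0.238 at P5, 0.136 and 0.315 at P10, 0.0548 and 0.194 at P15, and 0.0975 and 0.438 at P20. The 2 groups did not overlap, as for 0.142% of the tested genes in this direction, but at such levels a value rests on few fragments and the fit without the filter gave an adjusted p of 0.942. Lmx1a was chosen after its values were seen. Of the mast cell genes, the other source of Tph1, 8 of 10 were tested and 0 passed, with a median of -0.23 and summed FPKM of 24.4 to 42.3 in wild type and 20.5 to 41.7 in percc1-/-. Their changes had both signs, 3 above 0 and 5 below. The protease gene Tpsab1 was higher in 5 of 5 pairs (1.42 ± 0.31, limma adjusted p = 0.754). The part of mast cells in the rise of Tph1 was not tested.

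**Figure D2:**
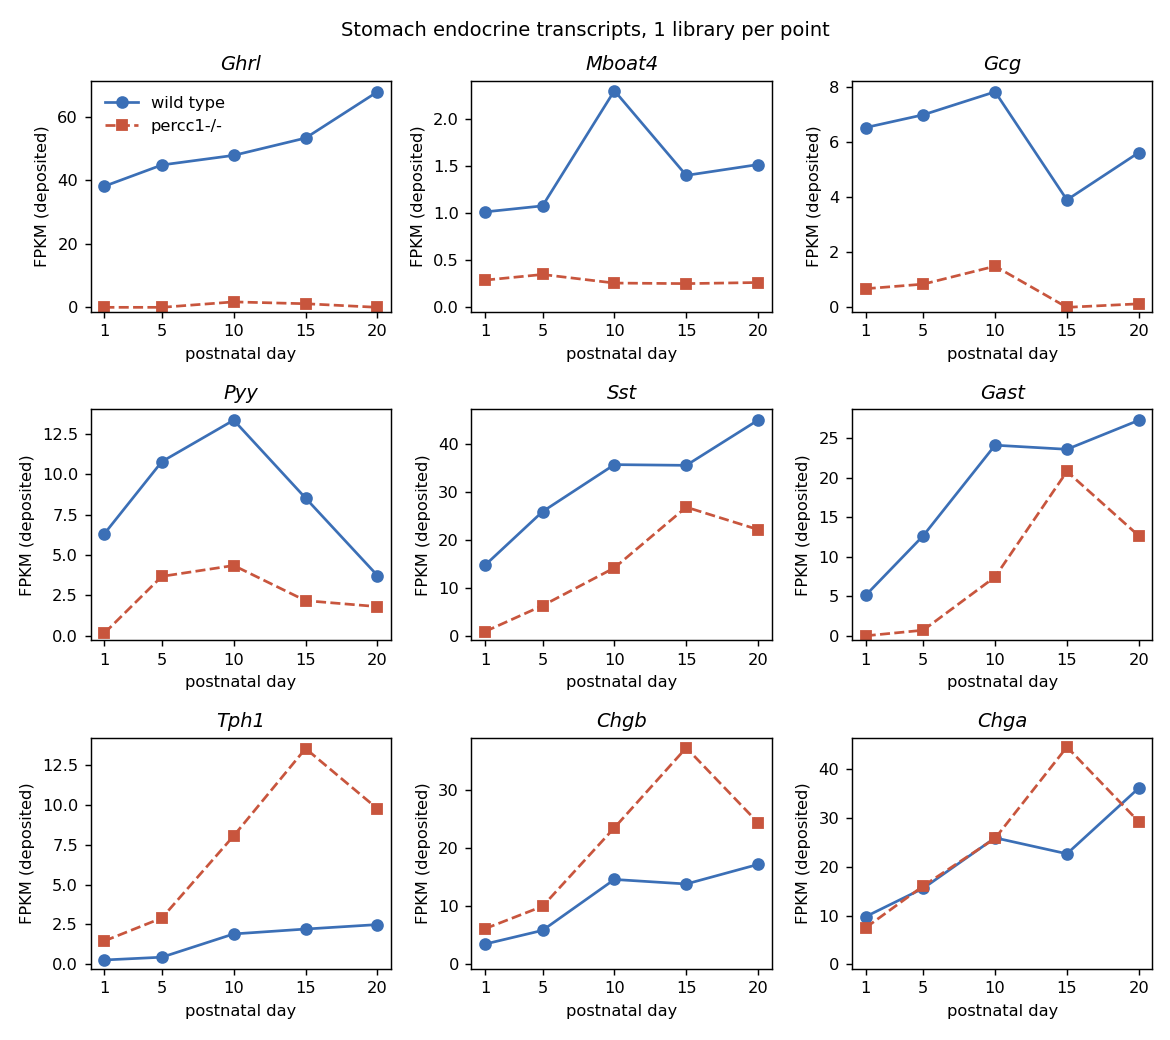
Deposited FPKM (y axis) of 9 endocrine genes by postnatal day (x axis), 1 library per point, wild type as filled circles and percc1-/- as squares. Ghrl, Mboat4 and Gcg are lower in percc1-/- at each stage with no overlap of the groups, Tph1 and Chgb are higher in each of 5 pairs, and Gast and Sst are lower in each of 5 pairs.

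Pyy, Sst and Gast were lower in percc1-/- in every pair without passing the test over all genes. Of 22 hormones listed, 13 were tested: 2 fell and 0 rose. At an unadjusted p under 0.05 there were 5 lower and 1 higher (2.24% and 2.42% of all tested genes). The 5 lower ones were Ghrl, Gcg, Pyy, Sst and Gast, and the higher one was Vip of enteric neurons (0.32 ± 0.12, adjusted p = 0.984). The remaining 8 tested hormones, Vip among them, had changes between -0.23 and 0.32 and adjusted p of 0.984 and above. The median over the 13 was -0.02.

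Peptide YY (Pyy), which slows gastric emptying and appetite, had 6.32, 10.8, 13.4, 8.53 and 3.73 FPKM in wild type from P1 to P20. In percc1-/- it had 0.164, 3.68, 4.36, 2.18 and 1.81. The groups overlapped only through the wild-type library at P20. Its rescaled level was 4.75-fold higher in wild type as a geometric mean over the pairs, and the change was -1.54 ± 0.28 (5 of 5 pairs lower, adjusted p = 0.519). On the deposited values without rescaling it passed (-1.55, adjusted p = 0.0160).

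Somatostatin (Sst), the inhibitor of gastrin, histamine and acid release made by D cells, had 14.7, 25.8, 35.6, 35.5 and 44.9 FPKM in wild type and 0.888, 6.28, 14.1, 26.8 and 22.1 in percc1-/-. Each pair was lower in percc1-/-, and the groups overlapped across stages. The wild-type level was 14.9-fold higher at P1, 3.60-fold at P5, 2.41-fold at P10, 1.69-fold at P15 and 1.82-fold at P20 (rescaled ratios). The mean change was -1.51 ± 0.32 on the log2 scale (adjusted p = 0.754).

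Gastrin (Gast), the acid-stimulating hormone of antral G cells, had 5.12, 12.7, 24.1, 23.6 and 27.3 FPKM in wild type. In percc1-/- it was listed at 0 at P1 and had 0.705, 7.45, 20.8 and 12.6 FPKM from P5 on. The pair differences were -2.72, -2.92, -1.51, -0.50 and -0.90 on the log2 scale, and their mean was -1.71 ± 0.36 (adjusted p = 0.754). Of 8 genes listed for G and D cells 6 were tested, 0 passed and all 6 changes were below 0 (52.1% of all tested genes were), with a median of -0.40. At P1, where that median was -1.08, markers of other gastric cells were also lower: the surface mucous list had a median of -1.32, the chief and neck cell list -1.01 and the parietal list -0.82. Their part in the hormone differences at P1 was not tested; from P5 to P20 these 3 medians lay between -0.28 and 0.45, and without the P1 pair the G and D cell median was -0.24.

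Genes shared by endocrine cell types gave no call. Chromogranin B (Chgb), a protein of secretory granules, had 3.48, 5.83, 14.6, 13.8 and 17.2 FPKM in wild type and 6.12, 9.96, 23.5, 37.2 and 24.3 in percc1-/-. It was higher in each pair, by 1.58-fold to 2.12-fold, and did not pass (0.81 ± 0.09, adjusted p = 0.0765). Chromogranin A (Chga) had 9.79, 15.6, 26.0, 22.7 and 36.2 FPKM against 7.52, 16.1, 25.9, 44.6 and 29.3, a change of 0.11 ± 0.12 (adjusted p = 0.991) with both signs among the pairs. Over 28 tested granule genes 0 passed and the median was -0.06. At an unadjusted p under 0.05, 1 gene was higher (Chgb) and 1 lower (2.42% and 2.24% of all tested genes were). The lower one was Pcsk2, a hormone-processing protease (-0.46 ± 0.17, adjusted p = 0.984).

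Among 30 listed endocrine transcription factors, 16 were tested and 0 passed. Their median was -0.14, and 3 were lower at an unadjusted p under 0.05 (2.24% of all tested genes were). They were St18 (-0.58 ± 0.14, adjusted p = 0.896, lower in 5 of 5 pairs), Nkx6-3, a factor of antral G and D cells in mouse (-0.50 ± 0.20, 0.984), and Pdx1 of the antrum (-0.42 ± 0.17, 0.984). Pdx1 had 0.860 and 1.39 FPKM in wild type at P1 and P5 against 0.0954 and 0.249 in percc1-/-, and 4.33 to 5.93 against 3.98 to 5.88 from P10 on. Isl1 had a change of -0.39 ± 0.22 (adjusted p = 0.984).

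Neurog3, which starts the endocrine programme, lay below the filter, at 0.302 to 1.68 FPKM for wild type and 0.186 to 1.44 for percc1-/-. It was chosen after its values were seen, and at these levels each value rests on few fragments.

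Histamine cells, the remaining large endocrine class of the acid-secreting mucosa, had 6 listed genes, all tested, of which 0 passed (median -0.16). The vesicular monoamine transporter Slc18a2 (-0.45 ± 0.16, adjusted p = 0.984) and the receptor Pth1r (-0.27 ± 0.11, 0.984) were lower in 5 of 5 pairs, as 3.24% of all tested genes were. The defining marker Hdc had both signs, higher in 2 pairs and lower in 3 (-0.26 ± 0.31, limma adjusted p = 0.991). It had 1.74, 2.80, 5.34, 6.44 and 9.19 FPKM in wild type and 3.70, 3.18, 2.11, 6.63 and 2.86 in percc1-/-. Cckbr and Npy1r were also higher in 2 pairs and lower in 3.

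**Figure D3:**
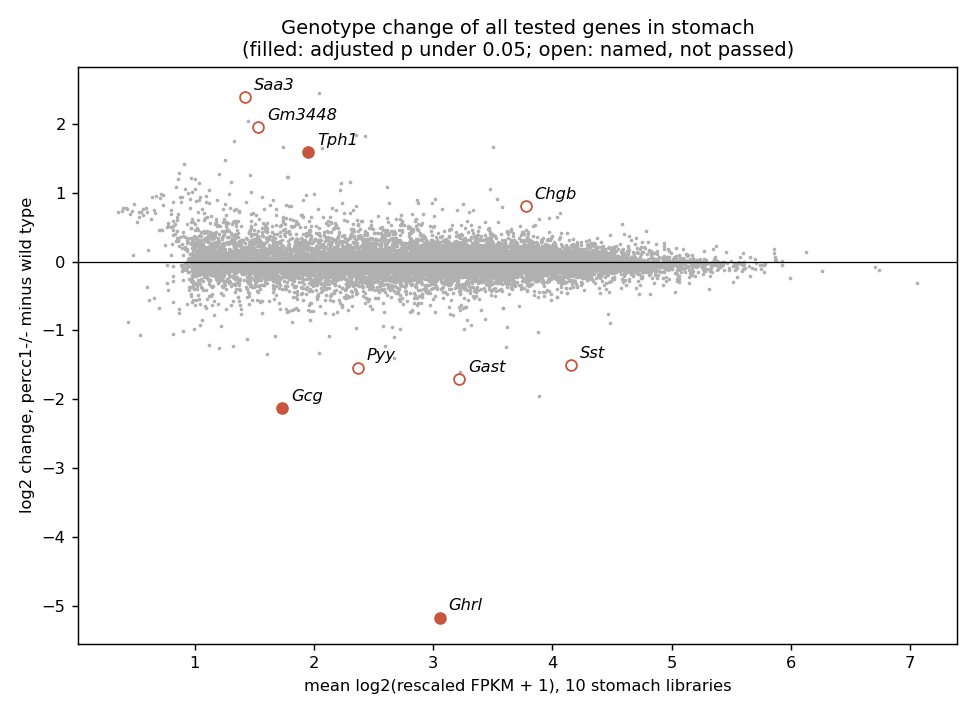
Log2 change (y axis, percc1-/- minus wild type) against mean log2(rescaled FPKM + 1) over the 10 stomach libraries (x axis), 1 grey point per tested gene. Filled circles mark the 3 genes of 13367 that passed (Ghrl, Gcg and Tph1) and open circles mark named genes that did not.

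The epithelium that makes up the bulk of the stomach gave no call. Of 17 parietal, 12 chief and neck, 18 surface mucous and 13 gastric transcription factor genes tested, 0 passed in each list, and the medians were -0.17, -0.08, -0.26 and -0.07. All 18 surface mucous genes and 16 of 17 parietal genes had changes below 0 (52.1% of all tested genes had). Without the P1 pair the 2 medians were -0.01 and -0.02. The members of smallest p in the parietal list were the growth factor Vegfb (-0.31 ± 0.11, adjusted p = 0.984) and the morphogen Shh (-0.57 ± 0.23, 0.984). In the surface mucous list Car9, a carbonic anhydrase, had 5.60 FPKM in wild type and 0 in percc1-/- at P1 and 30.6 against 17.2 at P20 (-0.98 ± 0.36, adjusted p = 0.984). The squamous epithelium of the forestomach had a median of -0.18 over 17 tested genes with 0 calls, from 0.20 at P1 to -0.92 at P15. Smooth muscle had a median of 0.01 over 12 genes and proliferation one of -0.08 over 20, with 0 calls.

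In some pairs, some markers of neighbouring organs differed by more than any gastric cell type. This did not hold for every list and pair. At P1 the medians of liver (-0.07) and skeletal muscle (0.34) were nearer 0 than that of surface mucous cells (-1.32). Summed over 22 genes, exocrine pancreas had 19.7 FPKM in percc1-/- against 168 in wild type at P1, 58.8 against 224 at P5 and 665 against 231 at P10. The 10 liver genes summed to 294 FPKM in percc1-/- at P5 and to 28.1 to 60.5 in the other 9 libraries, where albumin (Alb) had 38.0 FPKM at P5 in percc1-/- and 3.23 in wild type. Skeletal muscle summed to 93.7 FPKM in wild type at P15 against 19.1 to 41.9 elsewhere. None of these lists had a call, and their part in the results was not tested beyond leaving out each pair.

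**Figure D4:**
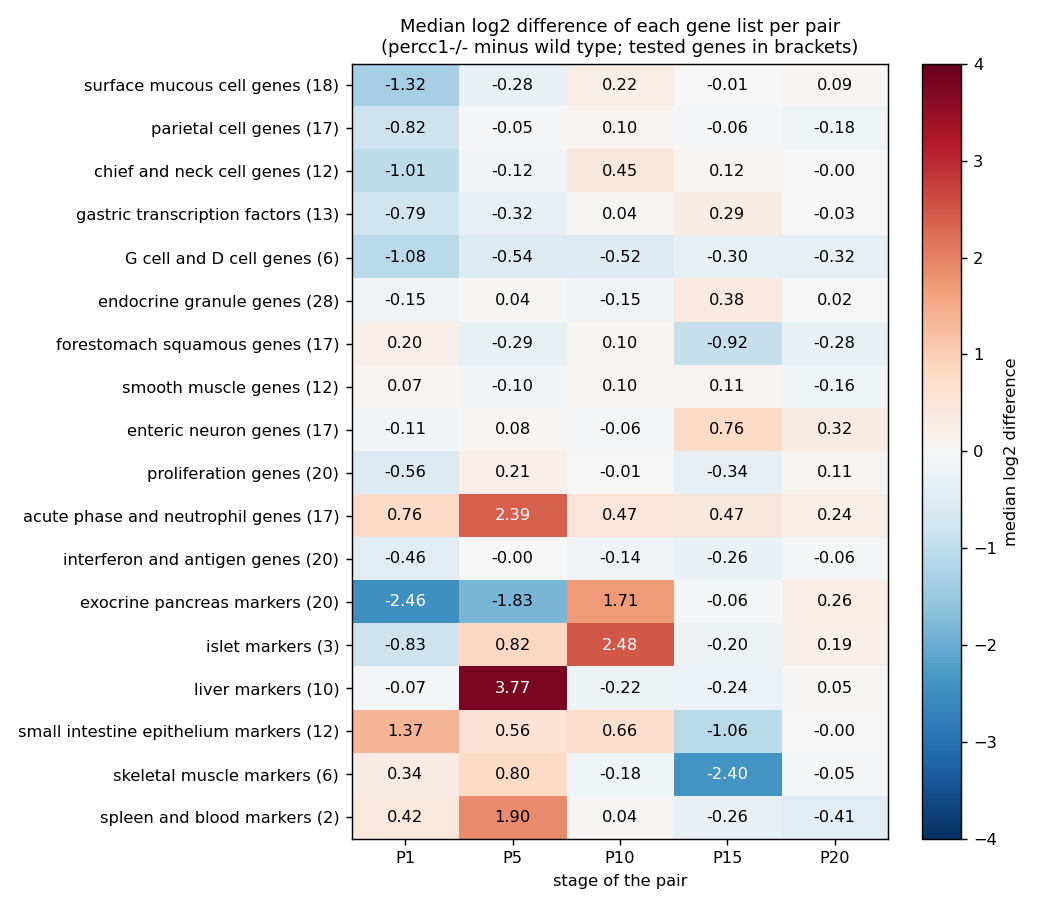
Median log2 difference (percc1-/- minus wild type, colour and printed value) of 18 gene lists (rows, with the number of tested genes) in each of the 5 stage pairs (columns). The surface mucous, parietal and chief and neck lists are lowest at P1 (surface mucous -1.32), the forestomach squamous list is lowest at P15 (-0.92), liver markers reach 3.77 at P5, and G and D cell genes are below 0 in all 5 pairs.

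Acute phase and neutrophil genes were measured as a list. Of 25 listed, 17 were tested and 0 passed. All 17 changes were above 0 (47.9% of all tested genes were), with a median of 1.15. At an unadjusted p under 0.05, 9 were higher (2.42% of all tested genes were). The liver markers moved with this list at P5, where its median was 2.39; at P1, P10, P15 and P20 it was 0.76, 0.47, 0.47 and 0.24, and over all pairs but P5 it was 0.63. Serum amyloid A3 (Saa3), made outside the liver in inflammation, had 0.110, 0.241, 0, 0 and 0.584 FPKM in wild type and 16.8, 3.67, 3.32, 9.95 and 1.04 in percc1-/-, with no overlap (2.39 ± 0.48, adjusted p = 0.754). The antimicrobial lectins Reg3b (1.82 ± 0.49, adjusted p = 0.948) and Reg3g (1.65 ± 0.51, 0.984) and the neutrophil protein S100a8 (1.85 ± 0.39, 0.754) were also higher in 5 of 5 pairs, as 2.61% of all tested genes were. Reg3b had 21.3 FPKM in percc1-/- at P1 against 0.461 in wild type. Markers of small intestine epithelium, where Reg3 proteins are made, were also higher in percc1-/- at P1 (median 1.37 over 12 genes), and their part was not tested. The member of smallest p over all pairs was the fatty acid carrier Fabp1 (0.43 ± 0.13, adjusted p = 0.984).

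Of 20 interferon and antigen genes 16 had changes below 0 (52.1% of all tested genes had), with a median of -0.18 and 0 calls. Oasl2 had 6.49, 3.43, 2.11, 3.71 and 3.11 FPKM in wild type and 1.92, 1.75, 1.75, 1.74 and 1.83 in percc1-/-, with no overlap (-0.68 ± 0.18, adjusted p = 0.948). Gbp3 (-0.54 ± 0.15, 0.977) and Oas2 (-0.55 ± 0.19, 0.984) were lower in 5 of 5 pairs. Mast cell proteases had both signs, with Tpsab1 on chromosome 17 at 1.42 ± 0.31 (adjusted p = 0.754, 5 of 5 higher, no overlap) and Mcpt1 at -0.69 ± 0.23 (0.984).

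Enteric neuron genes had 17 of 17 changes above 0 (47.9% of all tested genes were), a median of 0.18 and 0 calls. They were higher chiefly at P15 (median 0.76), the stage at which the percc1-/- library stands apart in its named share, and at P20 (0.32), with medians of -0.11 to 0.08 before; without the P15 pair the median was 0.03. Nos1, the nitric oxide synthase of inhibitory neurons, had 3.85, 3.06, 5.02, 2.89 and 2.28 FPKM in wild type and 3.67, 3.52, 5.98, 10.5 and 4.45 in percc1-/- (0.55 ± 0.19, adjusted p = 0.984), and the neuropeptide galanin (Gal) had a change of 0.38 ± 0.16 (0.984).

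Genes tied to feeding state and daily rhythm gave 0 calls. Of 23 fasting and glucocorticoid genes 19 were above 0 (median 0.17), as 47.9% of all tested genes were. The glucocorticoid-induced Fkbp5, on chromosome 17, had 21.5 FPKM in percc1-/- at P1 against 5.19 in wild type (0.85 ± 0.28 over all pairs, adjusted p = 0.984). Of 16 clock genes, the output gene Dbp had the largest change (-1.08 ± 0.43, adjusted p = 0.984; lower in 4 of 5) and was listed at 0 in percc1-/- at P1 and P5. Per3 was lower in 5 of 5 pairs (-0.68 ± 0.15, adjusted p = 0.840), while Per2 (0.39 ± 0.11, 0.984), Arntl (0.31 ± 0.10, 0.984) and Npas2 (0.58 ± 0.22, 0.984; 4 of 5) were higher. The labels used here do not give the hour of dissection. Of 14 immediate early genes 11 were above 0 (47.9% of all tested genes were), among them Dusp1 (0.43 ± 0.12, adjusted p = 0.948) and Egr1 (0.47 ± 0.18, 0.984).

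Of the 15 genes of smallest p with 1 sign in all 5 pairs, 7 are genes of chromosome 17, the chromosome of Percc1, which holds 4.77% of all tested genes. They are Gm3448, Glo1, Igfals, Tmem181a, Pla2g7, Tmem181b-ps and Paqr4. The predicted gene Gm3448 had 0.358, 1.26, 0.326, 0.236 and 0.377 FPKM in wild type and 7.16, 7.25, 2.25, 3.26 and 4.68 in percc1-/-, with no overlap (1.95 ± 0.22, adjusted p = 0.0976). The glyoxalase Glo1 was 1.36-fold to 1.59-fold higher in each pair (0.55 ± 0.07, adjusted p = 0.150). Igfals, which stabilises insulin-like growth factors in blood and lies near the locus, lay at 1.80 to 4.95 FPKM for wild type and 0.407 to 1.25 for percc1-/- (-1.13 ± 0.15, 0.192).

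Tmem181a (0.70 ± 0.10, adjusted p = 0.192) and the pseudogene Tmem181b-ps (0.65 ± 0.10, 0.360) are near copies whose reads cannot be divided with certainty. The phospholipase Pla2g7 was higher (1.14 ± 0.17, 0.306) and Paqr4 lower (-0.50 ± 0.09, 0.431). The deletion was made in cells of 1 strain and carried on a mixed background, so that strain variants linked to the locus and effects of the deletion cannot be told apart for genes of this chromosome. Of 21 tested neighbours of the locus 0 passed. In 5 of 5 pairs 1 neighbour was higher and 4 were lower, Igfals among the latter (2.61% and 3.24% of all tested genes were). Ift140 (0.50 ± 0.11, adjusted p = 0.840) was higher and the exocytosis gene Baiap3 (-0.58 ± 0.14, 0.896) lower in 5 of 5 pairs. Off chromosome 17, the neuregulin gene Nrg1 (0.67 ± 0.10, adjusted p = 0.306), Pnpla8 (0.52 ± 0.08, 0.360), Shmt2 of one-carbon metabolism (0.58 ± 0.09, 0.360) and Ceacam10 (-1.25 ± 0.20, 0.369) complete the 15 with Ghrl, Gcg, Tph1 and Chgb.

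Stomach was then set against the 7 pairs of small intestine, to ask whether the genotype effect differed between the organs. In 1 fit over both organs 2 of 13065 genes passed in the difference of effects (0.0153%), the hormone genes Gip and Nts. Both met the filter only through the intestine and were low in wild-type stomach, where a fall on this scale cannot exceed the starting level, so that these passes do not show a different response of the stomach. In the percc1-/- bottom intestine library at P5 the squamous keratins Krt5 and Krt13 had 14.2 and 34.1 FPKM, as in stomach, and without that pair 2 genes passed as well. The incretin Gip had 14.2 to 30.4 FPKM in wild-type intestine and 0 to 0.345 in percc1-/- intestine. In stomach it had 0.269 to 2.68 and 0.0630 to 0.418. Its change was -4.36 ± 0.17 in intestine and -0.76 ± 0.20 in stomach, a difference of 3.60 ± 0.26 (adjusted p = 3.54e-05) that the low starting level in stomach limits. Within stomach alone Gip was below the filter, and without the filter it did not pass (-0.78 ± 0.18, adjusted p = 0.942), being lower in each pair by 5.30-fold as a geometric mean.

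Neurotensin (Nts) had 1.92 to 22.4 FPKM in intestine of wild type and 0.0608 to 0.672 in that of percc1-/-. In stomach it had 0 to 0.488 and 0.0587 to 0.389 FPKM, so that no fall could be measured there, and the difference of changes was 3.30 ± 0.37 (adjusted p = 0.00319). For the genes that passed in stomach the organs were not shown to differ. The change of Ghrl was -5.12 ± 0.39 in stomach and -3.03 ± 0.33 in intestine (difference -2.09 ± 0.51, adjusted p = 0.645). That of Gcg was -2.10 ± 0.35 and -2.95 ± 0.30 (0.85 ± 0.46, adjusted p = 0.9995), and that of Tph1 was 1.57 ± 0.19 and 1.10 ± 0.16 (0.47 ± 0.24, adjusted p = 0.9995). Wild-type intestine had 6.03 to 17.4 FPKM of Ghrl, below every wild-type stomach library, and a fall on this scale cannot exceed the level it starts from. Sst had -1.50 ± 0.35 and -2.22 ± 0.29 (difference 0.72 ± 0.46, adjusted p = 0.9995).

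**Figure D5:**
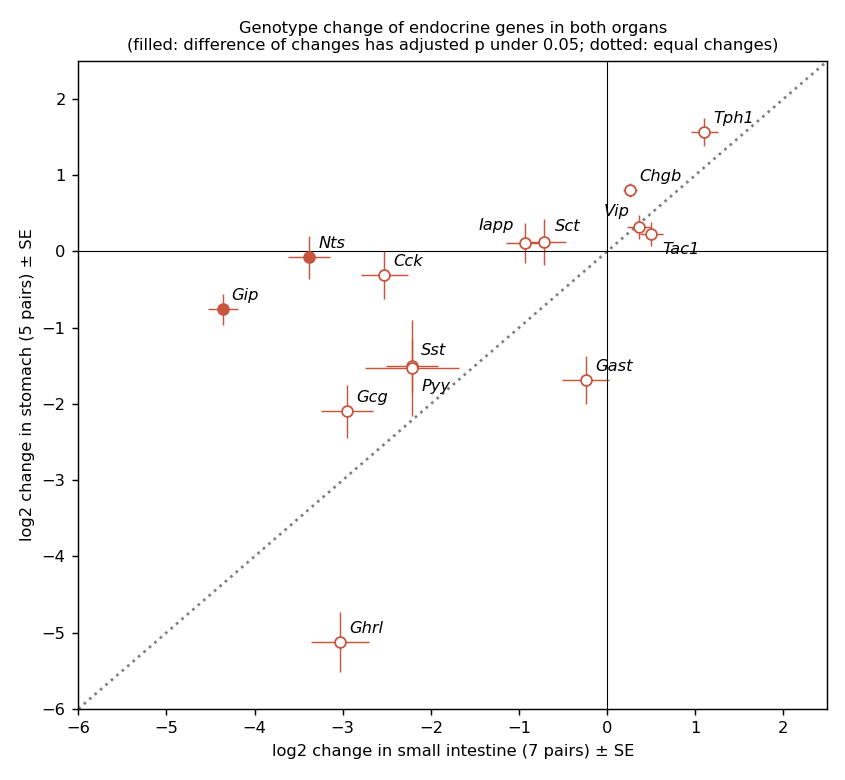
Log2 change of 14 endocrine genes in stomach (y axis, 5 pairs) against small intestine (x axis, 7 pairs), each with its SE as bars; the dotted line marks equal changes. Filled points, Gip and Nts, are those whose difference of changes passed, both with low levels in wild-type stomach (0.269 to 2.68 and 0 to 0.488 FPKM) that leave little room for a fall; Ghrl lies at -5.12 and -3.03, and Tph1 is above 0 on both axes.

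The genotype effect was also compared between the 2 younger pairs (P1 and P5) and the 3 older ones (P10, P15 and P20), and 3 of 13367 genes passed (0.0224%), against 9.69% with an unadjusted p under 0.05. All 3 rest on values listed at 0. The mitochondrial genes Prelid1 and Dnajc19 had 24.4 to 38.5 and 12.6 to 21.2 FPKM in 8 libraries and were listed at 0 in percc1-/- at P1 and P5 (differences of -4.79 ± 0.15 and -4.17 ± 0.23, adjusted p = 0.000401 and 0.00786). Pgam2, a glycolytic enzyme of muscle, was listed at 0 in percc1-/- at P1 and P5 and in wild type from P10 on, and had 1.81 to 2.96 FPKM elsewhere (-3.58 ± 0.28, adjusted p = 0.0418). With genes that have a 0 left out, no gene passed. The hormones did not pass: Gast had changes of -2.82 in younger and -0.97 in older stomach (difference -1.85 ± 0.32, adjusted p = 0.341), and Sst -2.38 and -0.93 (-1.45 ± 0.39, 0.481). Ghrl, Gcg and Tph1 had -5.47 and -4.98, -2.09 and -2.16, and 1.34 and 1.76.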

How the data were processed

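Total RNA of 10 stomach and 14 small intestine libraries was used; it was extracted with TRIzol, depleted of ribosomal RNA and made into stranded libraries, per the labels' protocols. The authors deposited 1 gene table per library in FPKM with lower and upper bounds. TopHat2 2.0.13, SAMtools 0.1.18, Cufflinks 2.2.1 and mm9 are named in the submitters' processing notes, which do not say what each did. The gene annotation is not named there. FPKM carries no counts, so no counting interval is given.

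Records of 1 gene symbol were summed. A gene held in a record that merges several symbols in any library of a fit, such as Krt5 at P20, was left out of that fit, which left 21737 of 22479 symbols. Libraries were rescaled by the median ratio over genes of at least 1 FPKM in every library. Tests used limma 3.58.1 in R 4.3.3 on log2(rescaled FPKM + 1), with a trended, robust variance prior and the stage pair as a block, for genes averaging 1 FPKM or more. Adjusted p-values follow Benjamini and Hochberg over all tested genes, are two-sided and were called under 0.05. Differences between organs and between ages were interaction terms. The test was tested on simulated data. Promoters are RefSeq windows (GRCm38.p6) matched to mm9 by sequence.

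The members, gene lists and tests were chosen with earlier results of these data known. Named genes are all called genes, tested hormones, the 15 of smallest p with 1 sign in 5 of 5 pairs, up to 5 per list by smallest p and defining gastric markers; not all are printed, and others are said to be chosen after their values were seen. Large bowel and whole gut were not used here. Alternatives were other pseudocounts, filters and scalings, the fit without pairs, and each pair left out.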

Additional observations from a re-analysis of the deposited data

Results flagged for a closer look

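Genotype differences passed an interaction test for 2 genes between organs and for 3 between ages, with limits in each case. The stomach change minus the small intestine change was 3.60 for Gip and 3.30 for Nts, which met the filter only through the intestine and were too low in wild-type stomach for a like fall there. The younger minus the older stomach change was -4.79 for Prelid1, -4.17 for Dnajc19 and -3.58 for Pgam2, and these last 3 rest on libraries listed at 0; none passed with genes holding a 0 left out or with unnamed records added.

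A single library lay far from the other 4 of its group in 15 of 191 sets of 5 values examined. About 1 in 20 would do so by chance if the values of a set differed only at random. Each set spans different stages and dissected parts, and the sets share libraries, so that this rate is not the one to be had here. In percc1-/- at P5 the liver genes Alb and Fgb had 38.0 and 32.3 FPKM, S100a8 had 27.4 (pair difference 3.81) and Oas2 had 1.59, and the pair difference of Arntl was 0.60. In percc1-/- at P1 Fkbp5 had 21.5 FPKM, and the pair differences of Car9 and Vegfb were -2.83 and -0.68. In percc1-/- at P10 Ins2 had 23.5 FPKM. In percc1-/- at P15 Pnpla8 and Shmt2 had 21.6 and 18.6 FPKM as deposited. Rescaling divided that library by 1.309 and the other percc1-/- stomach libraries by 0.822 to 1.015, so that these 2 flags may reflect the scale of the library. In wild type, Gm3448 and Gbp3 had 1.26 and 1.57 FPKM at P5, and Pgc had 177 at P20.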

How the results depend on the processing

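Of 3 genes that passed in stomach, 1 passed with a pseudocount of 0.1 (Tph1), 1 with a mean of at least 5 FPKM (Ghrl) and 1 without the pair as a block. Gcg and Tph1 lay below the filter of 5 FPKM and were not tested under it. None passed when genes with a 0, Ghrl and Gcg among them, were left out (615 with an unadjusted p under 0.05), nor with only the bottom (587) or only the whole stomach pairs (1068), which have fewer samples. On values not rescaled 7 passed, and with unnamed records added, an alternative chosen after seeing the data like the loess scaling, 5. Leaving out 1 pair gave 1 to 3. Without the pairing in the model Gcg and Tph1 did not pass (adjusted p = 0.0600 and 0.9999). Tph1 also missed the threshold with a pseudocount of 5 (0.309), with no filter (0.102), with loess scaling (0.0600) and with genes holding a 0 left out (0.0593). Ghrl and Gcg missed it at a pseudocount of 0.1 (0.0794 and 0.176). Among single genes printed, the direction of Chga turned, which lay between -0.0183 (without P15) and 0.18 with 1 pair left out. List medians that lay near 0 also turned: without P1 the chief and neck cell (0.11), gastric transcription factor (0.03), hormone (0.03) and proliferation lists (0.0002), without P10 the granule list (0.01), without P15 the smooth muscle list (-0.05), and without P20 the histamine (0.01) and ghrelin cell lists (0.01). Lists further from 0 turned as well. Without P1 exocrine pancreas went from -0.56 to 0.05 and the clock list from 0.15 to -0.05. Without P5 liver went from 0.56 to -0.27 and lymphocyte markers from 0.13 to -0.10. Islet markers went from 0.50 to -0.18 without P10, and skeletal muscle from -0.28 to 0.39 without P15.

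The 2 genes that differed between organs became 4 with no filter, 1 with a mean of at least 5 FPKM, 0 with genes holding a 0 left out (582 with an unadjusted p under 0.05) and 19 with only P1 and P5; they numbered 2 without each stomach pair and without the P5 bottom intestine pair, left out because its percc1-/- library has squamous keratins. The 3 that differed between ages became 9 and 1 with pseudocounts of 0.1 and 5, 8 with no filter, 43 without rescaling, 5 without the block, 0 with genes holding a 0 left out (1276) and 0 with unnamed records added (1202). Leaving out 1 pair gave 1 to 58, the 58 without P1. Where no construction explains a move, the cause was not tested. Depth per value is unknown, which limits genes near 1 FPKM most.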
